A study of Mus musculus with 24 samples.

Results

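The nuclear-encoded subunits of mitochondrial complex I were followed gene by gene in newborn mouse liver and skeletal muscle after maternal protein restriction. Members were all genes whose only symbol on a probe set follows the NDUF naming scheme for subunits (Ndufa, Ndufab, Ndufb, Ndufc, Ndufs and Ndufv, each with a number), which gave 35 of 18193 genes on the array. Ndufa11 and Ndufs6 were left out because their probe sets list several genes. The 35 include 6 core catalytic subunits. Pups were C57BL/6, taken at day 0 after birth, and the dams had been kept on 1 of 4 diets since day 1 of pregnancy. Casein made up 20% of the normal protein diet (NP) and 8% of the low protein diet (LP). In NPtau and LPtau the same diets were combined with 1% taurine, a sulfur-containing amino acid derivative, in the drinking water. Each tissue and diet had 3 arrays, 24 in all. The samples are called biological replicates, but whether the pups of a group had separate mothers is not given, and p-values therefore reflect only how much these samples vary.

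Complex I (NADH:ubiquinone oxidoreductase) is the entry point of electrons from NADH into the respiratory chain and pumps protons across the inner mitochondrial membrane. The N module oxidises NADH with a flavin and a chain of iron-sulfur clusters, the Q module passes the electrons to ubiquinone, and the proximal and distal parts of the membrane arm pump the protons. A small set of core subunits carries out catalysis, and the remaining (accessory) subunits surround it and are needed for its assembly and stability. The core subunits of the membrane arm are encoded by mitochondrial DNA. Around birth, liver and muscle both turn to oxidative metabolism as the placental glucose supply ends.

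Values are log2 expression values, and a difference of 1 is a doubling. Differences were tested with limma, with a shared spread for the 4 diets of a tissue and Benjamini-Hochberg adjustment over all 18193 genes. A gene is said to have risen or fallen if the adjusted p was under 0.05, and other differences are given as values with their standard error (SE). All 10 hepatocyte markers lay above the median of all genes in liver, and all 12 skeletal muscle markers in muscle, where 2 of 10 hepatocyte markers did. Some arrays stood apart before any comparison. The liver array NPtau replicate 2 had an interquartile range of 2.90 over all genes, LP replicates 2 and 3 had 2.91 and 2.85, and the other liver arrays had 3.04 to 3.18. The muscle array LPtau replicate 1 had 2.86 against 3.17 to 3.40 in the others, and the lowest mean correlation with the arrays of its tissue (0.962). Medians of the comparisons that use the liver array NPtau replicate 2, the liver LP replicates 2 and 3 or the muscle array LPtau replicate 1 are given with and without them. In whole tissue, fewer cells of a type and less RNA per cell cannot be told apart.

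Promoter windows from RefSeq (build GRCm38.p6, 250 bases before to 50 bases after the transcription start) were found for 32 of the 35 subunits, in 34 windows, and 5 short motifs of factors known to act on respiratory chain genes were searched on both strands. The YY1 motif AAGATGGC was held by 6 subunits (18.8%) against 2.75% of all 32851 windows. In these 6 it lay on the strand of the gene and began 23 to 39 bases after the start, whereas 50.1% of the 567 gene-strand matches in all windows lay after the start. The motif contains ATG, and whether this is the start codon of these genes, which would fix its strand and place, was not checked. The 6 sites are shown because the motif has the same strand and nearly the same position in subunits from all 4 structural parts, each as 30 bases on the strand of the gene with the motif in capitals.
Ndufs4 (N module, chr13:114388045-114388074, minus strand): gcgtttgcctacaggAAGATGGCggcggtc
Ndufs7 (Q module, chr10:80249462-80249491, plus strand): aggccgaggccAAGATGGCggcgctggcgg
Ndufa9 (Q module, chr6:126849097-126849126, minus strand): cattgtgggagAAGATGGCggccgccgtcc
Ndufa3 (proximal arm, chr7:3617384-3617413, plus strand): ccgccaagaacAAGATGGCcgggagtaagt
Ndufc1 (proximal arm, chr3:51408915-51408944, minus strand): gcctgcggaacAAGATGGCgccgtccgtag
Ndufb8 (distal arm, chr19:44555393-44555422, minus strand): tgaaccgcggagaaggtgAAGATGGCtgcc

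The other motifs were closer to their share of all windows. The ETS motif CCGGAAG was held by 4 subunits (12.5% against 8.86% of windows), the NRF1 motif GCGCATGC by 2 (6.25% against 2.71%), the ERR motif TGACCTT by 3 (9.38% against 4.72%) and the SP motif GGGCGG by 15 (46.9% against 35.7%). None of the 5 motifs is contained in another on either strand. The 250 bases before the start are shown for the subunit that passed the test in liver, Ndufv2, and for the subunit with the smallest p in muscle, Ndufb10, which differ in these motifs. Upstream of Ndufv2 (N module, gene at chr17:66078795-66101559, minus strand) the SP motif occurred 2 times, once on each strand, in capitals here, and upstream of Ndufb10 (distal arm, gene at chr17:24722060-24724423, minus strand) none of the 5 occurred.
Ndufv2 (chr17:66101560-66101809): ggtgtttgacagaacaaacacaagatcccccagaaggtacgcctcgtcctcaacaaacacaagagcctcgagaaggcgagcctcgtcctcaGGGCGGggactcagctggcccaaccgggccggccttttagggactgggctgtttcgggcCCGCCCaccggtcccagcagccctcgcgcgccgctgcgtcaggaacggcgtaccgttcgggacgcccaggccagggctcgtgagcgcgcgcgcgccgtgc
Ndufb10 (chr17:24724424-24724673): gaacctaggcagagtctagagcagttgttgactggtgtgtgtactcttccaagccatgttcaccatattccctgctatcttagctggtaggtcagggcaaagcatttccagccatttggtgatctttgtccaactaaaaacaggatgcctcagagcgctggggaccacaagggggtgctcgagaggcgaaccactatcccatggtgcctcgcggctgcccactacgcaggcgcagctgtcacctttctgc

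Most subunits were among the brightest genes of both tissues. In liver and in muscle, 33 of the 35 lay at or above percentile 87.6 of all genes. The exceptions were the distal-arm subunits Ndufb1, at percentile 59.8 in liver and 57.1 in muscle, and Ndufb4, at percentile 10.9 and 8.43, where the signal was among the dimmest of the array. Within a diet the subunits varied about as much as other genes. The median within-diet standard deviation was 0.169 over the subunits and 0.188 over all genes in liver, and 0.239 and 0.219 in muscle.

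In liver, low maternal protein went with higher values of nearly every complex I subunit. The LP minus NP difference was positive for 34 of 35 subunits, with a median of 0.33, whereas over all genes it was positive for 58.5% with a median of 0.05. Of the 35, 1 rose (1.11% of all genes rose) and 18 were higher at an unadjusted p under 0.05, as were 13.1% of all genes. For 23 subunits all 3 LP arrays lay above all 3 NP arrays (18.3% of all genes), and for none did they lie below (10.9% of all genes). Without LP replicate 1 the count of risen subunits was 5. It was 0 without LP replicate 2 or 3 or NP replicate 1 or 3. The calls over all genes moved in the same way, to 2013 without LP replicate 1. They were 30 and 29 without LP replicate 2 and 3, and 21 and 48 without NP replicate 1 and 3. The median over the subunits was 0.31, 0.34 and 0.34 without LP replicate 1, 2 and 3.

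**Figure D1:**
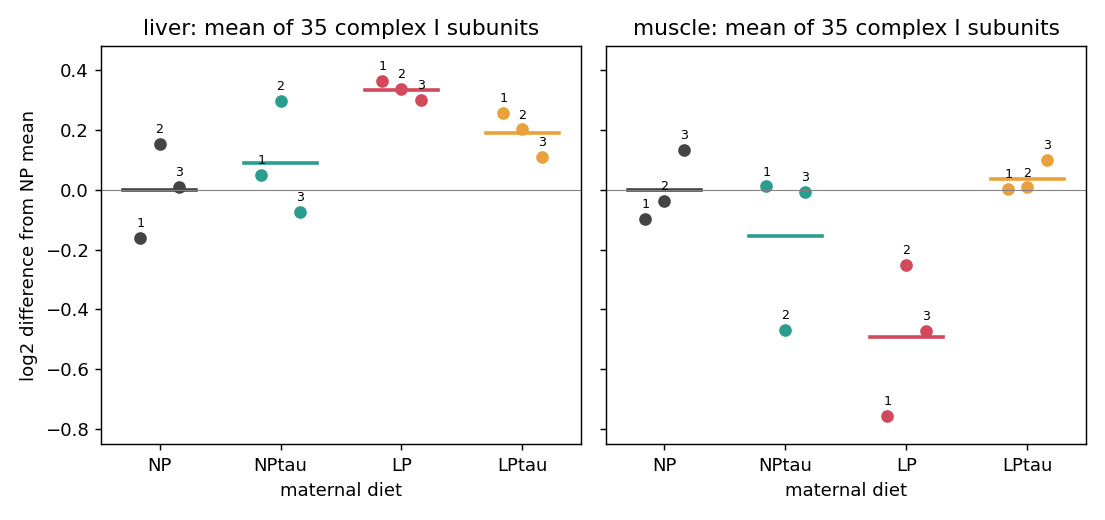
Mean of the 35 complex I subunits on each array as the log2 difference from the NP mean of the tissue, with liver and muscle in separate panels, 1 point per array labelled with its replicate number, and a line at the mean of each diet. The 3 liver LP arrays lie at 0.30 to 0.36, above all NP arrays, and the 3 muscle LP arrays at -0.75 to -0.25, below all NP arrays.

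In the N module, Ndufv2 carries an iron-sulfur cluster near the flavin. It read 11.27, 11.60 and 11.52 in the 3 NP livers and 11.91, 12.04 and 12.11 in LP. In NPtau it read 11.57, 11.64 and 11.45, and in LPtau 11.81, 11.65 and 11.52. The LP values were above all values of the other diets. Ndufv2 rose by 0.56 (SE 0.12, adjusted p = 0.0409 by limma), and its 3 probe sets had the same direction. The call was lost when the probe sets were averaged (adjusted p = 0.0768), when the NP and LP arrays were fitted alone (0.0763), when sex, read from sex-linked genes, was a covariate (0.0662, with 2 of 3 LP and 1 of 3 NP livers female), and without LP replicate 2 (0.143) or 3 (0.145) or NP replicate 1 (0.157), 2 (0.0551) or 3 (0.114). Its difference was 0.44 to 0.63 under these settings. Ndufa6, an accessory protein of the LYR family, read 11.02, 11.04 and 10.96 in NP and 11.60, 11.30 and 11.44 in LP, a difference of 0.44 (SE 0.10, adjusted p = 0.0539 by limma). Its NP livers were tightly grouped and all LP livers lay higher. The other N-module differences ran from 0.17 for Ndufv3, with overlapping groups, to 0.38 for Ndufa12. The remaining core subunits of the module were Ndufs1, the large iron-sulfur protein, at 0.36, and Ndufv1, which binds the flavin, at 0.34.

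The Q module held both wide and absent differences in liver. Ndufa5, an accessory subunit of the matrix arm, read 10.09, 10.43 and 10.39 in NP and 10.71, 11.06 and 10.74 in LP, and all LP values were higher (0.54, SE 0.14, adjusted p = 0.0734 by limma). Among the core subunits, Ndufs7, which carries the last iron-sulfur cluster before ubiquinone, differed by 0.57 and Ndufs3 by 0.31. Ndufs8, another iron-sulfur core subunit, read 10.96, 11.53 and 11.29 in NP and 11.22, 11.32 and 11.30 in LP. Its LP values fell inside the NP range, and the difference was 0.02 (SE 0.18).

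In the proximal membrane arm, the largest liver difference of all subunits, read from the brightest probe set of each gene, was that of Ndufa10, an accessory subunit with a nucleoside kinase-like fold. It read 10.79, 11.48 and 10.75 in NP and 11.87, 11.74 and 11.92 in LP, a difference of 0.83 (SE 0.20, adjusted p = 0.0563 by limma). All LP livers were higher, and NP replicate 2 was well above the other NP livers. Its second, dimmer probe set differed by 0.16, and averaging both lowered the difference to 0.49 (adjusted p = 0.0676), below the 0.57 and 0.73 of the probe sets of Ndufs7. The other proximal subunits differed by 0.19 (Ndufc2) to 0.39 (Ndufc1).

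In the distal arm, Ndufb9, another LYR protein, read 11.32, 11.83 and 11.52 in NP and 12.06, 12.14 and 12.12 in LP (0.55, SE 0.14, adjusted p = 0.0692 by limma). Ndufb10, an accessory subunit stabilised by disulfide bonds, read 10.26, 10.49 and 10.40 in NP and 10.68, 11.14 and 10.94 in LP (0.54, SE 0.13, adjusted p = 0.0543 by limma). In both the groups did not overlap. Ndufb2 was the exception in direction, with 10.24, 10.94 and 10.43 in NP, 10.78, 10.25 and 10.56 in LP and a difference of -0.0044 (SE 0.25), the widest SE in liver, and its other probe sets were positive. The medians of the structural parts were close to each other, at 0.34 over 9 N-module, 0.31 over 5 Q-module, 0.29 over 8 proximal and 0.30 over 12 distal subunits. The 6 core subunits had a median of 0.35 and the 29 others 0.30. Ndufa4, which carries the name of a complex I subunit but is now assigned to complex IV, differed by 0.35.

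In LPtau livers the mean of the 35 subunits was 0.26, 0.20 and 0.11 above NP on the 3 arrays, against 0.36, 0.34 and 0.30 in LP. Since LPtau minus LP and LP minus NP share the LP arrays, a pull in opposite directions is built into them, and the values are given side by side. LPtau minus LP was negative for 31 of 35 subunits (median -0.14, over all genes -0.01), 0 were called (0.0165% of all genes fell) and 4 were lower at an unadjusted p under 0.05 (3.32% of all genes). For 10 subunits all LPtau livers lay below all LP livers (7.01% of all genes), and for 1, Ndufs8, above (6.77%). The smallest p belonged to Ndufv2 (-0.36, SE 0.12, adjusted p = 0.433 by limma), Ndufa5 (-0.37) and Ndufb10 (-0.29). The median was -0.11, -0.15 and -0.19 without LP replicate 1, 2 and 3. Against NP, LPtau was positive for 34 of 35 (60.9% of all genes), with a median of 0.21 (over all genes 0.04), 0 called (0% of all genes) and 4 at an unadjusted p under 0.05 (4.65% of all genes higher). Without NP replicate 1 this median fell to 0.10. Ndufa6 differed by 0.32, Ndufb9 by 0.41 and Ndufs1 by 0.31.

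With taurine on the normal diet, the median difference from NP in liver was smaller than with low protein. NPtau minus NP was positive for 32 of 35 subunits (58.1% of all genes) with a median of 0.09 (over all genes 0.03), 0 were called and 0 had an unadjusted p under 0.05 (2.75% of all genes). The smallest p belonged to Ndufs7 (0.24), Ndufb10 (0.19) and Ndufb1 (0.22). Replicate 2 decided this direction. Its subunit mean was 0.30 above NP against 0.05 and -0.07 for the other NPtau livers, and without it the median was -0.02. Without NP replicate 1 the median was 0.0035, and without NP replicate 2 or NPtau replicate 3 it was 0.16 and 0.14. LPtau minus NPtau had a median of 0.10 with 0 called (0% of all genes) and 3 higher at an unadjusted p under 0.05 (3.48% of all genes), Ndufa6 (0.34), Ndufa10 (0.48, and 0.11 with averaged probe sets) and Ndufs1 (0.31). This median was 0.19 without NPtau replicate 2, 0.05 without NPtau replicate 1, 0.01 without NPtau replicate 3 and 0.06 without LPtau replicate 1. The interaction of protein and taurine was negative for 34 of 35 subunits (median -0.19, over all genes -0.03) with 0 called (0% of all genes) and 4 lower at an unadjusted p under 0.05 (4.40%), and the smallest p belonged to Ndufa5 (-0.52), Ndufv2 (-0.45) and Ndufb10 (-0.47). Without NPtau replicate 2 the median of the interaction was -0.12, and without LP replicate 2 or 3 it was -0.21 and -0.25.

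Levels of other liver cell types moved with the same arrays. Markers of B cell progenitors, which the newborn liver still hosts, were lower in LP liver for 8 of 9 genes (median -1.22), and 4 fell (1.23% of all genes), Rag1 (-2.01), Ebf1 (-1.90) and Cd79b (-1.55) having the smallest p. The marker mean relative to NP was -1.28 to -0.91 in LP, -0.79 to 0.10 in LPtau and -0.15 to 0.06 in NPtau. The erythroid marker mean was -0.57 to -0.26 in LP, -0.77 to 0.11 in LPtau and -0.69 in NPtau replicate 2, and 7 of 9 genes were lower in LP. The endothelial marker mean was -0.51 to -0.34 in LP and -0.13 to 0.16 in LPtau, with 8 of 10 genes lower in LP, where Pecam1 (-0.80), Esam (-1.07) and Cdh5 (-1.11) fell. Fibroblast and stellate cell markers were lower in LP for 9 of 10 genes (median -0.37, 0 called and 3 lower at an unadjusted p under 0.05, as were 9.53% of all genes), with a mean of -0.64 to -0.49 in LP, -0.20 to 0.49 in NPtau and -0.15 to 0.70 in LPtau. Granulocyte markers were also lower for 9 of 10 genes (median -0.54, 0 called and 7 at an unadjusted p under 0.05), with a mean of -0.90 to -0.14 in LP, -0.05 to 0.33 in NPtau and -0.29 to 0.19 in LPtau. Of 5 adipocyte markers 2 were lower in LP, and Fabp4, a fatty acid binding protein, fell by 1.27 (adjusted p = 0.0127 by limma). The hepatocyte marker mean stayed within -0.08 to 0.03 of NP on every liver array. These markers were very bright (median level 14.44, highest 14.93), and whether their signal was saturated was not tested. LP replicate 1, with an interquartile range of 3.09, had a subunit mean of 0.36, the highest of the LP livers. The part of the marker shifts, and of the narrower value range of LP replicates 2 and 3, in the subunit differences was not tested.

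In muscle, low maternal protein went with lower values of complex I subunits. LP minus NP was negative for all 35 subunits on the deposited scale, with a median of -0.51, whereas over all genes it was positive for 47.6% with a median of -0.01. With probe sets restricted to those without a cross-hybridisation suffix, 1 of 35 was positive. None was called (0.104% of all genes fell), while 23 were lower at an unadjusted p under 0.05 (6.22% of all genes). For 26 subunits all 3 LP arrays lay below all 3 NP arrays (11.6% of all genes) and for 0 above (7.99%). The LP arrays were unequal, with subunit means of -0.75, -0.25 and -0.47 below NP. Without replicate 2, the highest of them, 2 subunits passed the threshold, as did 126 of all genes. The median was -0.35, -0.61 and -0.51 without LP replicate 1, 2 and 3. LP replicate 1, the lowest of them, had a mean correlation of 0.965 with the muscle arrays, the next lowest after LPtau replicate 1.

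**Figure D2:**
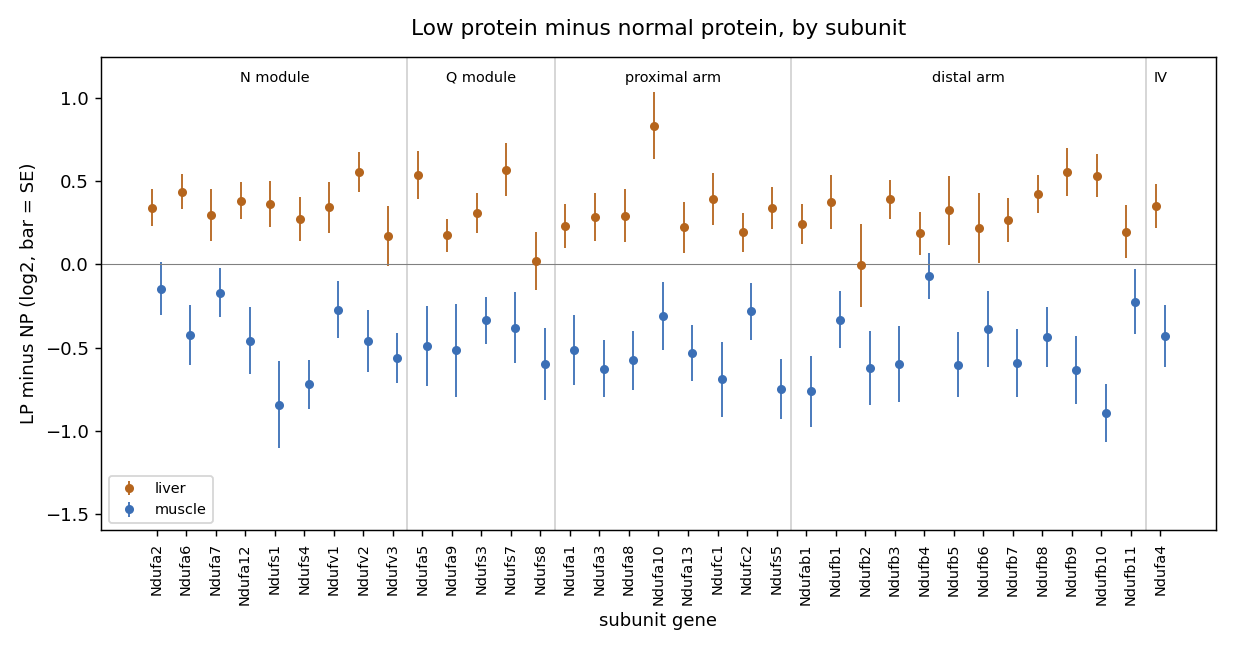
LP minus NP log2 difference of each of the 35 subunits in liver and in muscle, grouped by structural part, with bars of 1 SE from limma. Liver values lie from -0.0044 to 0.83 and muscle values from -0.89 to -0.07, and the muscle value is the lower one for every subunit.

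In the N module, Ndufs4, a small accessory subunit whose loss destabilises the module and underlies a mouse model of Leigh syndrome, read 10.29, 10.35 and 10.34 in NP muscle and 9.38, 9.88 and 9.56 in LP. All LP values were lower, and the difference was -0.72 (SE 0.15, adjusted p = 0.0921 by limma). Without LP replicate 2 it was -0.85 (adjusted p = 0.0375), and with cyclic loess normalisation -0.69 (0.0352). Of its other probe sets the dimmest (mean level 4.0) had the opposite sign (0.15). Ndufv3, a small subunit beside the flavoprotein, read 11.62, 11.61 and 11.87 in NP and 10.94, 11.29 and 11.18 in LP (-0.56, SE 0.15, adjusted p = 0.165 by limma), and the groups did not overlap. Ndufs1 read 10.63, 10.74 and 10.78 in NP and 9.48, 10.22 and 9.91 in LP (-0.84, SE 0.26, adjusted p = 0.249 by limma). Its LP arrays were all lower and widely spread. The other core N-module subunits were lower by less, Ndufv2 at -0.46 and Ndufv1 at -0.27, and Ndufa2 had the smallest difference of the module, -0.14 with overlapping groups.

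In the Q module, the muscle differences ran from -0.34 for the core subunit Ndufs3 to -0.60 for the core subunit Ndufs8, with Ndufs7 at -0.38. Ndufs8, which did not differ from NP beyond its SE in liver, read 11.53, 11.42 and 11.64 in NP and 10.72, 11.15 and 10.93 in LP muscle, all lower.

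In the proximal arm, Ndufs5, a subunit of the intermembrane space face with disulfide bonds, read 11.08, 11.06 and 11.40 in NP and 10.09, 10.65 and 10.55 in LP (-0.75, SE 0.18, adjusted p = 0.130 by limma). Ndufa3, a small membrane subunit, read 11.90, 11.84 and 11.90 in NP and 11.03, 11.46 and 11.26 in LP (-0.63, SE 0.17, adjusted p = 0.171 by limma). Its dimmest probe set (mean level 4.98) differed by 0.09, and with averaged probe sets the difference was -0.37. In both subunits the groups did not overlap. Ndufa10, whose brightest probe set had the largest difference in liver, was among the smaller ones in muscle, at -0.31 (SE 0.21) with overlapping groups.

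In the distal arm, Ndufb10 had the largest difference and the smallest p of all subunits in muscle. It read 11.38, 11.48 and 11.78 in NP, 10.45, 10.95 and 10.56 in LP, 11.58, 11.04 and 11.49 in NPtau and 11.58, 11.63 and 11.61 in LPtau. The LP values lay below those of every other diet. LP minus NP was -0.89 (SE 0.18, adjusted p = 0.0839 by limma), and it passed the threshold without LP replicate 2 (-1.04, adjusted p = 0.0380) and with cyclic loess (-0.86, 0.0352). The limma adjusted p was 0.184 with sex as a covariate, 0.137 with NP and LP arrays alone and 0.358 without NP replicate 3. Ndufab1, the mitochondrial acyl carrier protein, which also serves fatty acid and lipoate synthesis, read 12.02, 12.03 and 12.41 in NP and 11.07, 11.75 and 11.34 in LP (-0.76, SE 0.21, adjusted p = 0.190 by limma). Its LP muscles were all lower, replicate 2 the least. Its 4 dimmer probe sets differed by -0.51 to -0.0056, and the value was -0.38 (adjusted p = 0.320) with averaged probe sets and -0.51 (0.724) with probe sets without a cross-hybridisation suffix. Ndufb4, the dim probe set, showed -0.07 (SE 0.14). The medians of the parts were -0.46 for the N module, -0.49 for the Q module, -0.56 for the proximal and -0.60 for the distal arm, with -0.42 over the 6 core subunits, -0.52 over the 29 others and -0.43 for Ndufa4. The 6 subunits with the YY1 motif had a median of -0.57 and the 26 without it -0.48, and in liver 0.34 and 0.30.

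**Figure D3:**
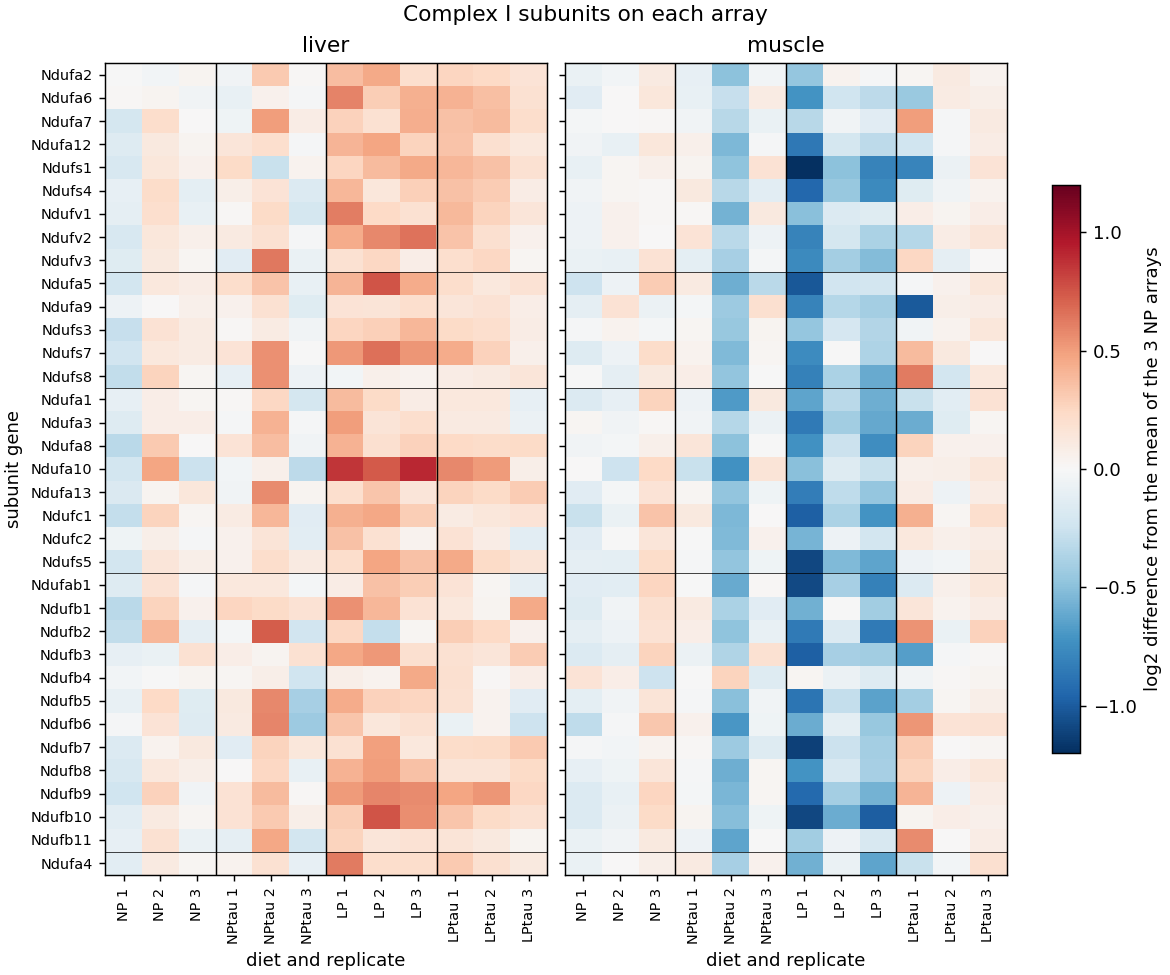
Log2 difference of every subunit from its NP mean on each of the 24 arrays, with subunits in rows by structural part, arrays in columns by tissue and diet, and colour for the size and sign. The muscle LP columns are low in nearly every row, the liver LP columns are high, and NPtau replicate 2 is high in liver (mean 0.30) and low in muscle (mean -0.47).

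With taurine, the low protein muscles read close to the normal ones. LPtau minus LP, which shares the LP arrays with LP minus NP, was positive for all 35 subunits with a median of 0.50 (over all genes 0.02). None was called (0.0165% of all genes rose), 24 were higher at an unadjusted p under 0.05 (6.05% of all genes) and for 24 all LPtau arrays lay above all LP arrays (9.03% of all genes). Ndufb10 differed by 0.95 (SE 0.18, adjusted p = 0.0957 by limma), Ndufs4 by 0.67 (SE 0.15, adjusted p = 0.146, and 0.43 with averaged probe sets) and Ndufs5 by 0.76 (SE 0.18, adjusted p = 0.153). The Ndufs4 values of LPtau muscle were 10.18, 10.29 and 10.37, and the Ndufs5 values 11.11, 11.15 and 11.29, all above LP. With cyclic loess these 3 passed the threshold (adjusted p = 0.0215, 0.0266 and 0.0421), and without LP replicate 2 Ndufb10 did (0.0338). With LP and LPtau arrays fitted alone, their limma adjusted p was 0.495, 0.555 and 0.555. The median over the subunits was 0.36, 0.66 and 0.48 without LP replicate 1, 2 and 3.

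LPtau minus NP in muscle was positive for 24 subunits and negative for 11 (49.5% of all genes positive), with a median of 0.06, 0 called (0% of all genes) and 0 at an unadjusted p under 0.05 (3.75% of all genes). The smallest p belonged to Ndufb6 (0.29), which turned to -0.03 with probe sets without suffix, Ndufa7 (0.20, and 0.30 with cyclic loess) and Ndufa3 (-0.24, and -0.06 with averaged probe sets). The array that stood apart, LPtau replicate 1, spread the subunits most, from -1.01 to 0.62 of NP, against -0.22 to 0.17 and 0.00 to 0.27 in the other LPtau muscles, at nearly the same mean (0.00, 0.01 and 0.10). Without it the median of LPtau minus LP was 0.56 and that of LPtau minus NP 0.06. The latter was 0.02 without NP replicate 1, 0.03 without NP replicate 2 and 0.13 without NP replicate 3. NPtau minus NP was negative for 34 of 35 (43.1% of all genes positive) with a median of -0.16 (over all genes -0.02), 0 called and 0 at an unadjusted p under 0.05 (0.484% of all genes), the smallest p being those of Ndufa10 (-0.28), Ndufa2 (-0.21) and Ndufb11 (-0.23), which shrank to -0.14, -0.07 and -0.08 with cyclic loess. This rested on replicate 2, whose subunit mean was -0.47 against 0.01 and -0.01, and without which the median was 0.00. The median was -0.26 without NPtau replicate 1 and -0.09 without NP replicate 3. LPtau minus NPtau had a median of 0.23, 0 called (0% of all genes) and 3 higher at an unadjusted p under 0.05 (3.05% of all genes), Ndufa7 (0.35), Ndufb11 (0.45) and Ndufb6 (0.52). With probe sets without suffix the last pair had 0.30 and 0.13. The median was 0.07 without NPtau replicate 2 and 0.20 without LPtau replicate 1.

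The interaction in muscle was positive for all 35 subunits (53.5% of all genes), with a median of 0.69 (over all genes 0.03). None was called (0% of all genes), and 23 were higher at an unadjusted p under 0.05 (3.84% of all genes). Ndufb10 had 1.13 (SE 0.25, adjusted p = 0.517 by limma), Ndufs4 0.79 and Ndufs5 0.94. The median stayed between 0.50 and 0.85 when any 1 array was left out, and was 0.69 without LPtau replicate 1.

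**Figure D4:**
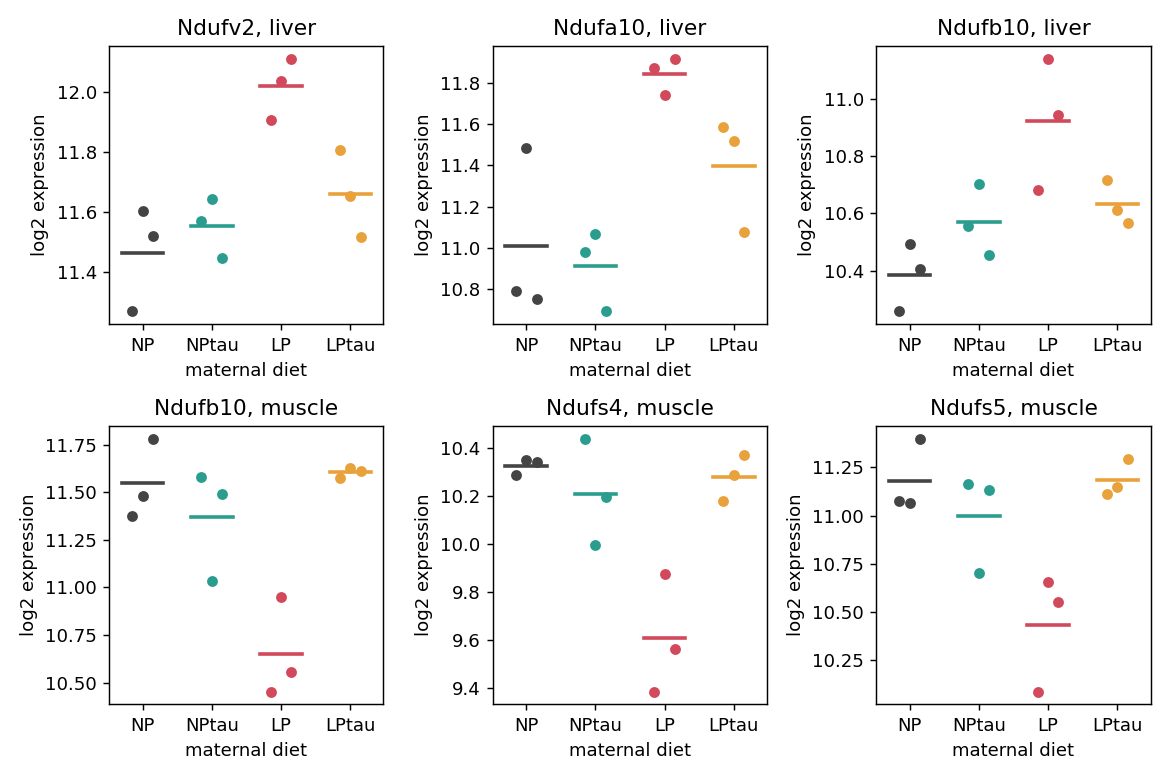
Log2 values on every array for subunits described in the text, by diet, in liver and in muscle, with a line at each group mean of 3 arrays. The LP points of Ndufv2 lie above all other diets in liver, and those of Ndufb10 lie below all other diets in muscle.

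Genes of fast muscle fibres moved with the same arrays. All 12 fast fibre markers were lower in LP muscle (median -1.36), and 3 fell (0.104% of all genes), Pvalb (-4.14), Mybpc2 (-4.50) and Actn3 (-2.98). The mean of the list relative to NP was -2.10, -1.29 and -1.83 on the LP arrays, in the same order as the subunit means, -0.65 in NPtau replicate 2 and -0.72, -0.36 and -0.01 in LPtau. The 9 slow fibre markers had a mean of -0.68 to 0.04 in LP, and the 12 general skeletal muscle markers -0.75 to -0.22. All 10 endothelial markers were lower in LP (median -0.41, 0 called, 3 at an unadjusted p under 0.05, as were 6.22% of all genes), with a mean of -0.60 to -0.24 in LP, -0.31 to 0.23 in NPtau and -0.93 to -0.09 in LPtau. All 5 adipocyte markers were lower in LP as well (median -0.75, 0 called and 0 at an unadjusted p under 0.05), with a mean of -1.16 to -0.45 in LP, -1.69 to 1.33 in NPtau and -1.81 to 0.09 in LPtau. All 10 hepatocyte markers were higher in LP muscle (median 0.66, 0 called and 0 at an unadjusted p under 0.05), with a mean of 0.16 to 2.03 in LP, 0.58 to 1.15 in NPtau and -0.36 to 1.09 in LPtau. On LPtau replicate 1, the muscle array that stood apart, the fast fibre mean was -0.72 and the subunit mean 0.00. The part of the marker shifts in the subunit differences was not tested.

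The muscle LP minus NP difference less that of liver was tested in a fit of all 24 arrays. The test asks whether the differences of the tissues are unequal, not whether their directions are opposite. Within a single tissue only Ndufv2 in liver was called in LP minus NP. The muscle minus liver value was negative for all 35 subunits (44.4% of all genes were positive), with a median of -0.86 (over all genes -0.05), and 11 were called (1.24% of all genes were called in this direction). In the Q module 0 of 5 were called, and 5 were lower at an unadjusted p under 0.05, as were 1835 of all 18193 genes. By part the called ones were 4 of 9 N-module subunits (Ndufs4, Ndufv2, Ndufa6 and Ndufs1), 2 of 8 in the proximal arm (Ndufs5 and Ndufa3) and 5 of 12 in the distal arm (Ndufb10, Ndufb9, Ndufb5, Ndufab1 and Ndufb8). Ndufb10 had the largest, -1.43 (SE 0.22, adjusted p = 0.00280 by limma), followed in p by Ndufs4 at -0.99 (SE 0.20, adjusted p = 0.0141, and -0.61 with 0.0696 when probe sets were averaged) and Ndufs5 at -1.09 (SE 0.22, adjusted p = 0.0151). Ndufv2, the subunit called in liver, had -1.02 (SE 0.22, adjusted p = 0.0232). Ndufb5 was represented by another probe set in this fit than in liver alone, where its difference was 0.33 against 0.74 here. With the brightest probe set of each tissue it read 10.61, 10.94 and 10.56 in NP liver and 11.14, 10.98 and 10.96 in LP liver, and 11.72, 11.80 and 11.99 in NP and 10.96, 11.55 and 11.19 in LP muscle. Ndufb8 read 11.14, 11.46 and 11.40 in NP and 11.75, 11.83 and 11.69 in LP liver, and 11.54, 11.59 and 11.78 in NP and 10.92, 11.44 and 11.23 in LP muscle. In both subunits the LP arrays were all higher than NP in liver and all lower in muscle.

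The calls depended on the choice of probe set. With averaged probe sets those of Ndufs4, Ndufb5 (-1.07, adjusted p = 0.0762), Ndufab1 (-0.46, 0.221) and Ndufb8 (-0.53, 0.0811) were lost, and with probe sets without suffix those of Ndufab1 (-0.75, 0.391) and Ndufb8 (-0.20, 0.678), whose remaining probe set is dim (mean level 4.80 in liver and 4.22 in muscle). In all, 12 and 13 subunits were called under these settings, for which the calls over all genes are not given. Further calls were lost for Ndufs1 with median centring (0.0544) or sex as a covariate (0.0560), for Ndufb8 with a filter on dim genes (0.0548) and for Ndufab1 with the compared groups only (0.0621). The number of calls also depended on single arrays. It fell to 1 without liver NP replicate 1, 2 without liver LP replicate 2 or muscle NP replicate 3, 3 without muscle LP replicate 1, and 4 to 6 without liver LP replicate 3, liver NP replicate 3, or muscle LP replicate 3, NP replicate 1 or NP replicate 2, and rose to 20 without muscle LP replicate 2. The calls over all genes moved as well, to 119 without liver NP replicate 1 and 533 without muscle LP replicate 2. Ndufb10 stayed past the threshold in each of these fits. With liver and muscle of the same diet and number taken as one pup, an alternative chosen after the data were seen, 2 subunits were called, Ndufb10 (adjusted p = 0.0134) and Ndufs5 (0.0356). The labels do not say whether such a pair is one pup. The sex of the arrays, read from sex-linked genes, was the same in both tissues for 12 of 12 numbers.

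The other respiratory complexes were listed for comparison, without a test between lists. For complexes II and III, 14 of 14 genes were positive in LP minus NP in liver (median 0.37) and 0 of 14 in muscle (median -0.51). By limma 0 were called in either tissue, and 12 in liver (13.1% of all genes) and 8 in muscle (6.22%) had an unadjusted p under 0.05 in that direction. Of all genes, 1.11% rose in liver and 0.104% fell in muscle. The same shares apply to the counts of the lists that follow. For complex IV it was 11 of 13 in liver (median 0.16, 0 called, 5 at an unadjusted p under 0.05) and 2 of 13 in muscle (median -0.36), where Cox7a1, the muscle isoform of a small subunit, fell by 2.27 (SE 0.28, adjusted p = 0.0211 by limma). For ATP synthase it was 14 of 15 in liver (median 0.22), where the catalytic-core subunit Atp5a1 rose by 0.49 (SE 0.09, adjusted p = 0.0236 by limma), and 0 of 15 in muscle (median -0.31, 0 called, 5 at an unadjusted p under 0.05). Complex I assembly factors, which build the enzyme without being part of it, were positive for 15 of 17 in liver (median 0.29) and 1 of 17 in muscle (median -0.38, 0 called, 5 lower at an unadjusted p under 0.05). Among them Foxred1, an oxidoreductase needed for complex I assembly, rose by 0.83 in liver (SE 0.16, adjusted p = 0.0278 by limma). The mitochondrially encoded complex I subunit ND5 had -0.09 in liver and -0.30 in muscle, with overlapping groups in both.

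Of 14 regulators of mitochondrial genes, 3 were positive in liver (median -0.30) and 3 in muscle (median -0.33), with 0 called by limma in either and 3 in liver (9.53% of all genes) and 2 in muscle (6.22%) lower at an unadjusted p under 0.05. Ppargc1a, a coactivator of mitochondrial biogenesis, differed by -0.18 (SE 0.64) in liver and -0.91 (SE 0.78) in muscle. Esrra, a nuclear receptor that acts with it, differed by 0.16 (SE 0.15) and -0.20 (SE 0.14).

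Where a subunit had several probe sets, these mostly gave the same sign of LP minus NP. All probe sets of the gene did so for 17 of 20 subunits in liver, the exceptions being Ndufb2, Ndufs4 and Ndufab1, and for 16 of 20 in muscle, the exceptions being Ndufs4, Ndufa12, Ndufa3 and Ndufb9. In muscle each exception came from 1 dim probe set with a mean level of 4.0 to 5.26. Ndufa1 and Ndufb11 lie on chromosome X, and their LP minus NP differences were 0.23 and 0.20 in liver and -0.51 and -0.22 in muscle, inside the range of the autosomal subunits.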

How the data were processed

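Biotin-labelled cRNA made from total RNA of 12 livers and 12 hindleg muscles was hybridised to Affymetrix mouse arrays (1 colour, 45101 probe sets). The deposited table holds log2 expression. Per the submitters' processing notes, the authors used RMA and R 2.7.0, and MAS5 is also named, without its role. Liver and muscle arrays were normalized separately, per the labels, so levels were not compared between tissues. All value columns had a sample (0 left over).

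Probe sets with 1 symbol in the platform annotation (34945) were reduced to the one with the highest mean over a tissue's 12 arrays, giving 18193 genes. Dim genes were kept. A mean per diet was estimated for each tissue with limma 3.58.1 (lmFit, eBayes) in R 4.3.3, and the tissue difference over all 24 arrays. The method was tested on simulated data. With 3 arrays a group, the smallest two-sided p of an exact permutation test is 0.1, so calls depend on the spread that limma pools over genes, and array number limits precision. The interaction is the taurine effect on LP minus that on NP.

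Per-array values are given for subunits called in any contrast and for the 6 smallest p of LP minus NP in each tissue, and the 3 smallest p are named in other contrasts, with the core subunits and Ndufa4 as values. Exceptions, chosen after their values were seen, are Ndufb2, Ndufs8 and other subunits given as ends of a range. Other lists give up to 3 called genes of LP minus NP by p, Ppargc1a and Esrra. The subunits and lists were chosen with earlier results of these data known. Alternatives were another choice of probe set, normalization, filter, covariates, a replicate block and leaving out each array. Promoter windows came from RefSeq (GRCm38.p6), where Ndufa2, Ndufb9 and Ndufs1 had no entry.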

Additional observations from a re-analysis of the deposited data

Results flagged for a closer look

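Whether the LP minus NP difference was unequal between the tissues was tested by limma over 24 arrays, adjusted over all genes. The test called 11 subunits (1.24% of all genes in this direction), each with a positive value in liver and a negative one in muscle. The count was 1 to 20 when 1 array was left out. With liver and muscle of one number taken as one pup it was 2, Ndufb10 and Ndufs5, and the labels do not say whether such a pair is one pup. The muscle minus liver value was -1.43 for Ndufb10, -0.99 for Ndufs4, -1.09 for Ndufs5, -1.18 for Ndufb9 and -1.02 for Ndufv2. It was -1.34 for Ndufb5, -0.86 for Ndufa6, -0.91 for Ndufa3, -1.01 for Ndufab1, -0.86 for Ndufb8 and -1.21 for Ndufs1. With averaged probe sets 4 of these were no longer past the threshold, Ndufs4 (-0.61), Ndufb5 (-1.07), Ndufab1 (-0.46) and Ndufb8 (-0.53), and with probe sets without a cross-hybridisation suffix Ndufab1 was at -0.75 and Ndufb8 at -0.20 (adjusted p = 0.391 and 0.678). The adjusted p ran from 0.00280 for Ndufb10 to 0.0476 for Ndufs1. Cell type and fibre markers moved with the LP arrays in both tissues, and their part in these differences was not tested.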

How the results depend on the processing

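The medians over the 35 subunits moved by less than the spread between arrays under every alternative that was run. Leaving out 1 of 3 arrays moves a group mean by only part of that array's deviation, so this bound does not measure stability. The NPtau minus NP medians changed sign when single arrays were left out. In LP minus NP the median ranged from 0.23 to 0.40 in liver and from -0.61 to -0.35 in muscle when 1 array was left out, and from -0.97 to -0.70 for the tissue difference. Small medians changed by more than 1.5 times with other settings, in muscle LPtau minus NP (0.01 to 0.16), LPtau minus NPtau (down to 0.14) and NPtau minus NP (up to -0.02), and in liver LPtau minus NPtau (down to 0.06) and NPtau minus NP (down to 0.06). Counts of called subunits were less stable. For liver LP minus NP (1) the count was 2 with averaged probe sets (Ndufa6 and Ndufb9), 2 with probe sets without suffix, 2 with an intensity trend, 0 with the compared groups only, 0 with sex as a covariate, and 0 to 5 when 1 array was left out. Under these settings other than leaving out 1 array, 357, 391, 476, 315 and 244 of all genes were called, in that order. Without liver NPtau replicate 2, an alternative chosen after seeing the data, the count was 4, with 674 of all genes called. Over all genes 2013 were called without LP replicate 1 and 21 without NP replicate 1. In muscle, cyclic loess gave 2 for LP minus NP and 3 for LPtau minus LP in place of 0 (65 and 67 of all genes called). Leaving out 1 array gave 0 to 2 and 0 to 1, with 126 and 75 of all genes called at the most subunit calls. For the tissue difference (11) the count was 18 with cyclic loess, 1 to 20 when 1 array was left out, and 2 with liver and muscle of one number as one pup, chosen after seeing the data. Of all genes, 491 were called with cyclic loess and 245 with one pup per number. With 1 array left out, 119 were called at the fewest subunit calls and 533 at the most. Ndufb6 in LPtau minus NP of muscle turned from 0.29 to -0.028 with probe sets without suffix. The cause was not tested. In LP minus NP 33 to 35 subunits were positive in liver and 0 or 1 in muscle. Deviations of same-numbered arrays of a tissue correlated from -0.21 to 0.42 in liver (mean 0.05) and from -0.44 to 0.34 in muscle (mean -0.04), and the labels give no shared litter or day, so the numbers were not treated as pairs. With the replicate block 1 subunit was called in liver LP minus NP, Ndufa10 in place of Ndufv2 (adjusted p = 0.0546), 0 in muscle and 9 in the tissue difference. Calls over all genes with the block are not given. Low signal limits Ndufb4 and Ndufb1.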
